A study of Mus musculus with 117 samples.

Results

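LINE-1 (L1) elements are retrotransposons, repeats that copy themselves through an RNA intermediate that is reverse transcribed at the insertion site by a protein of their own. In the mouse the families named L1Md are the youngest by name, and their A, Gf and T families hold copies that can still move, whereas the L1M, L1P and Lx families are remnants of older rounds of insertion, mostly truncated and unable to move. Somatic cells keep L1 promoters silent largely by DNA methylation and H3K9 methylation, and germ cells, early embryos and pluripotent cells transcribe young L1 more than most somatic cells do.

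The table of RNA counts held 799 repeat families beside 26301 genes, and 106 of the repeat rows carried a name that starts with L1 or Lx. These 106 families were 6 L1Md families (L1Md_A, L1Md_F, L1Md_F2, L1Md_F3, L1Md_Gf and L1Md_T), 70 L1M, 2 L1P and 16 Lx families, and 12 other rodent families with names such as L1_Mm, L1_Mus and L1VL. The 88 L1M, L1P and Lx families are called older L1 here, a split by name. After the filter on low counts 105 families entered each test, and the remaining L1M2a1 was too rare. Each row sums reads over all genomic copies of a family, so autonomous L1 transcripts, L1 sequence inside introns and read-through transcripts cannot be told apart, and reads shared between near-identical families such as L1Md_A, L1Md_Gf and L1Md_T may be split between them. Lengths of the families were not used, so levels are compared between groups and not between families.

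The study asked how SUMO, a small protein attached to chromatin and other proteins by the single conjugating enzyme Ubc9, guards cell identity. RNA was measured in 28 libraries of 10 groups. Mouse embryonic fibroblasts from E13.5 embryos (MEF, passage 1) received a control hairpin (MEF shCtrl, 3 libraries) or a hairpin against Ubc9 (MEF shUbc9, 2 libraries). Fibroblasts of the same stage and passage in which OKSM (Oct4, Klf4, Sox2 and Myc, which together reprogram somatic cells) had been on for 4 (D4) or 7 days (D7) carried the same hairpins, with 3 libraries in each of D4 shCtrl, D4 shUbc9, D7 shCtrl and D7 shUbc9. Induced pluripotent stem (iPS) cells derived from such fibroblasts formed the groups iPS shCtrl (2 libraries) and iPS shUbc9 (3 libraries). Embryonic stem (ES) cells at passages 15 to 20 received control siRNA (ES siCtrl, 3 libraries) or siRNA against Ubc9 (ES siUbc9, 3 libraries). Depletion was therefore by hairpin in 4 states and by siRNA in ES cells, and the labels do not say that libraries of a group came from separate cultures, so p-values measure only the spread between libraries.

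Gene rows held 11365908 to 58779915 counts per library, and L1 and Lx rows took 9.70 to 21.8% of the repeat counts. Levels are CPM, counts per 1000000 counts in the genes of the same library after TMM scaling over all 28 libraries. Fitted fold changes use TMM factors of the compared libraries alone and so differ slightly from ratios of the printed levels, most in depleted ES cells, where the fitted log2 changes of the L1Md families are 0.084 to 0.089 above those ratios. Of the libraries labelled iPS shUbc9, replicate 2 stood apart, with the fewest counts and with 7.22% of its counts in repeats against 14.1 and 14.7% in the other 2.

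L1Md RNA was lowest in fibroblasts, 3.09-fold higher after 4 days of OKSM on the group means and highest in ES cells. The summed level of the 6 L1Md families was 2007, 1322 and 1991 CPM in the MEF shCtrl libraries, 5365, 4594 and 6497 in D4 shCtrl and 5487, 4956 and 7525 in D7 shCtrl. It was 4437 and 3402 CPM in iPS shCtrl and 16421, 18424 and 17777 in ES siCtrl. MEF lay below and ES cells above every other control library, D4 and D7 overlapped, and the iPS libraries lay just below both.

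The 3 families with mobile copies showed the widest range. L1Md_A read 194, 129 and 180.4 CPM in MEF shCtrl, 529, 464 and 677 in D4 shCtrl, 584, 536 and 802 in D7 shCtrl, 428 and 372 in iPS shCtrl and 5584, 5817 and 6025 in ES siCtrl. The order of the means was MEF, iPS, D4, D7 and ES, and of the neighbours in that order D4 and D7 overlapped while the others did not. L1Md_T, in the same order of groups, read 316, 199 and 309, then 869, 683 and 1040.2, then 873, 791 and 1222, then 1306 and 1257, then 5812, 6123 and 6232 CPM. Here the iPS libraries lay above every D4 and D7 control library, and again D4 and D7 overlapped. L1Md_Gf rose in the same order, from 15.4, 10.4 and 15.9 CPM in MEF to 66.2 and 64.4 in iPS and 254, 263 and 269 in ES cells, with D4 at 32.0, 30.8 and 41.3 and D7 at 36.6, 39.7 and 44.5.

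The F families, a lineage with few intact copies, were less spread over the states. L1Md_F read 83.2 ± 18.3 CPM (SD, n = 3) in MEF, 309.8 ± 54.9 (n = 3) in D4, 338 ± 70.1 (n = 3) in D7, 179 ± 45.4 (n = 2) in iPS and 484 ± 70.5 (n = 3) in ES cells. L1Md_F2 and L1Md_F3 followed the same order of groups, with MEF lowest, iPS next, then D4 and D7 and then ES cells. L1Md_F2 ran from 1045 ± 231 to 3895 ± 565 CPM and L1Md_F3 from 188 ± 39.2 to 1036 ± 104. For L1Md_F2 the D4, D7 and ES control libraries overlapped, and for L1Md_F and L1Md_F3 the ES libraries lay above all others. In L1Md_T and L1Md_Gf the iPS means ranked next below ES cells, and in L1Md_A and the F families they ranked next above MEF.

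**Figure D1:**
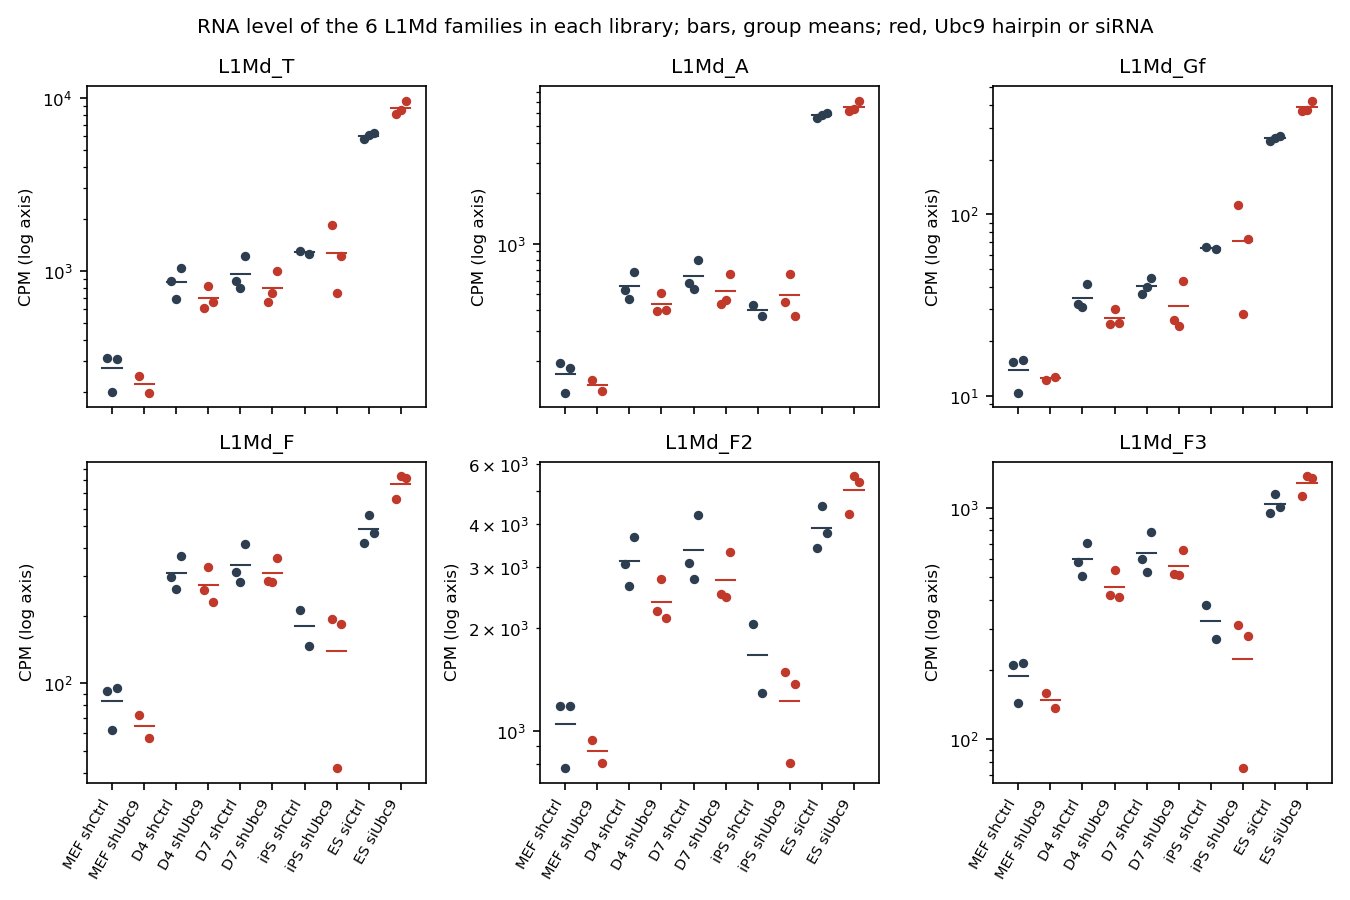
CPM of each L1Md family (log axis, 1 panel per family) in each of the 28 libraries, by group; points are libraries, bars are group means and red marks libraries with a hairpin or siRNA against Ubc9. L1Md_A, L1Md_T and L1Md_Gf were highest in ES cells by a wide gap. In ES cells the siUbc9 libraries of L1Md_T, L1Md_Gf, L1Md_F and L1Md_A lay above all siCtrl libraries, although L1Md_A was not called.

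Nearly every L1 family was higher after 4 days of OKSM. Between D4 shCtrl and MEF shCtrl, edgeR's quasi-likelihood test with Benjamini-Hochberg adjustment over all rows called 102 of 105 families higher and 1 lower, against 35.5% of all rows tested called higher and 31.8% lower. All 6 L1Md families rose, from 1.31 for L1Md_Gf to 1.88 for L1Md_F on the log2 scale (median 1.65), and so did all 16 Lx families (median 1.71). The median over older L1 was 1.22 and over all 766 repeat families tested 1.11, of which 93.5% were called higher. L1MEe, chosen after its values were seen as the family called lower, read 143, 131 and 171 CPM in MEF and 131, 124 and 120.3 in D4 (-0.26 ± 0.0933, SE, adjusted p = 0.0340), and TMM scaling was needed for this call.

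Between the D4 and D7 controls 1 L1 family was called. L1M2b, also chosen after its values were seen, read 101, 96.3 and 102 CPM at D4 and 121, 120.4 and 130.3 at D7 (log2 fold change 0.32 ± 0.0580, adjusted p = 0.00917), and this call was lost without TMM scaling. Of all rows, 9.47% were called higher at D7. The L1Md families gave log2 fold changes of 0.09 to 0.22, each with its D4 and D7 libraries overlapping.

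ES cells held more RNA than fibroblasts of 102 of 105 families, with 1 lower, against 49.4% of all rows called higher and 41.1% lower. L1Md_A was 35.6-fold higher (log2 5.15 ± 0.167, adjusted p = 4.55e-10), L1Md_T 22.6-fold and L1Md_Gf 19.5-fold. The F families were higher by less, 5.98-fold for L1Md_F, 5.65-fold for L1Md_F3 and 3.83-fold for L1Md_F2. The median log2 fold change was 3.43 for L1Md, 1.87 for the other rodent families, 1.57 for older L1 and 1.40 for all repeat families tested. L1M2b went the other way, from 101, 102 and 104 CPM in MEF to 25.4, 22.2 and 25.2 in ES cells (4.09-fold lower, adjusted p = 5.50e-10). Passage and the control agent (hairpin in MEF, siRNA in ES cells) differ along with cell state in this comparison and cannot be told apart from it.

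iPS cells, although pluripotent by their markers (3291 to 4198 CPM summed over 10 pluripotency genes, 3875 to 4203 in ES siCtrl), held less L1 RNA than ES cells. Of 105 families 93 were lower in iPS shCtrl than in ES siCtrl and 1, L1M2b, was higher, against 27.5% of all rows called lower. L1Md_A was 15.2-fold lower (adjusted p = 4.98e-05), L1Md_T 4.96-fold and L1Md_Gf 4.21-fold. L1Md_F3, L1Md_F and L1Md_F2 were lower by 3.34-fold, 2.83-fold and 2.44-fold. The median was -1.91 for L1Md, -0.92 for older L1 and -0.80 for all repeat families. Without ES siCtrl replicate 2 the count fell to 52, all 6 L1Md families lower in that fit as well. Summed fibroblast markers were 489 to 1256 CPM in iPS shCtrl and 82.1 to 97.4 in ES siCtrl, and their part in the difference was not tested. The control agent (hairpin in iPS cells, siRNA in ES cells) and the origin of the cells also differ here. They cannot be told apart from cell state.

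Setting young against older L1 within each library removes what changes both classes alike. The ratio of L1Md to older L1 counts was 0.182, 0.160 and 0.178 in MEF shCtrl, 0.213, 0.213 and 0.227 in D4 shCtrl, 0.238, 0.247 and 0.252 in D7 shCtrl, 0.238 and 0.275 in iPS shCtrl and 0.650, 0.580 and 0.652 in ES siCtrl. MEF, D4 and D7 did not overlap each other, iPS overlapped D7, and ES cells were 3.62-fold above MEF on the group means. The share of L1Md in all L1 counts was 11.5 to 12.5% in MEF shCtrl and 30.1 to 32.8% in ES siCtrl. Within older L1 the ratio of Lx to L1M counts was close to 1 in MEF, iPS and ES controls (means of 0.999, 1.03 and 1.03) and higher at D4 and D7 (1.37 and 1.55), with libraries of 1.26 to 1.48 at D4 and 1.5 to 1.62 at D7 that all lay above the others. These ratios are descriptions and carry no test.

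**Figure D2:**
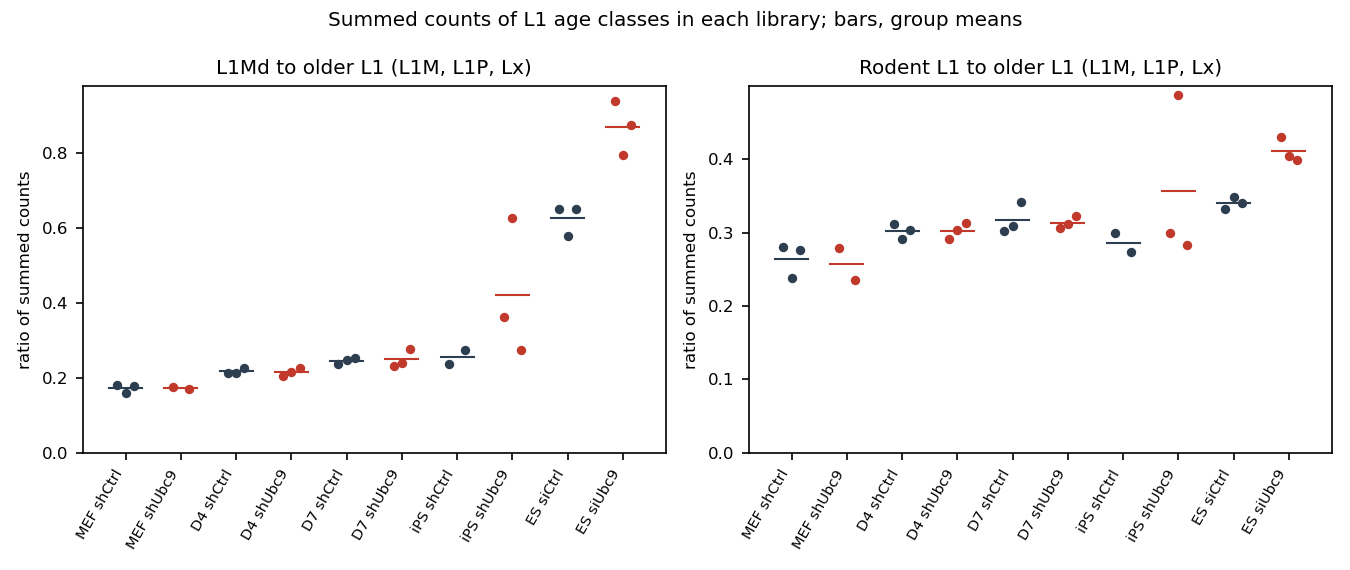
Ratio of summed counts in each library (left, L1Md to older L1; right, other rodent L1 families to older L1), by group; points are libraries, bars group means, red a hairpin or siRNA against Ubc9, and both axes start at 0. The left panel shows ES siUbc9 at 0.795 to 0.940, above ES siCtrl at 0.580 to 0.652, while depleted and control libraries overlapped in MEF, D4 and D7 and, at 0.238 to 0.275 in iPS shCtrl and 0.274 to 0.628 in the libraries labelled iPS shUbc9, in iPS.

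Ubc9 depletion in ES cells was accompanied by higher RNA of 5 of 6 young L1 families, with few older ones called in the fit without a replicate block. L1Md_T read 5812, 6123 and 6232 CPM in ES siCtrl and 8039, 8506 and 9639 in ES siUbc9. L1Md_Gf read 254, 263 and 269 in the controls and 369, 376 and 422 in the depleted libraries, and L1Md_F 423, 561 and 469 in the controls and 663, 836 and 818 in the depleted libraries. In these 3 families every depleted library lay above every control library. The log2 fold changes were 0.62 ± 0.108 (SE) for L1Md_T (edgeR adjusted p = 0.00235), 0.66 ± 0.0661 for L1Md_Gf (adjusted p = 0.000105) and 0.76 ± 0.123 for L1Md_F (adjusted p = 0.00159), or 1.53-, 1.58- and 1.69-fold, and ratios of the mean levels printed were 1.44, 1.48 and 1.60.

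The other 3 L1Md families moved by less. L1Md_F2 read 3402, 4512 and 3771 CPM in ES siCtrl and 4299, 5525 and 5313 in ES siUbc9, and L1Md_F3 947, 1149 and 1011 in the controls and 1128, 1369.9 and 1339 in the depleted libraries. Both were called higher, by 0.46 ± 0.140 (adjusted p = 0.0326) and 0.39 ± 0.103 (adjusted p = 0.0173) on the log2 scale, although in each the highest control library, replicate 2, exceeded the lowest depleted library, replicate 1. L1Md_A, the family with the widest range between cell states, read 5584, 5817 and 6025 in the controls and 6178, 6358 and 7111 CPM in the depleted libraries. All its depleted libraries were above all controls, but the difference of 0.26 ± 0.101 did not pass the adjusted threshold (adjusted p = 0.0750). DESeq2, run as an alternative, called all 6 L1Md families higher.

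Among all L1 families in ES cells 10 were called higher and 1 lower, a share of 9.52% higher against 20.4% of all rows. L1Md supplied 5 of the 10, with 5 of 6 members called and a median of 0.54, while older L1 had 4 of 87 higher, 1 lower and a median of -0.09. The 4 were Lx2A, Lx2A1, L1M3d and L1M3f, of which Lx2A and L1M3d were chosen after their values were seen, and the 1 other rodent family called was L1_Mm. Lx2A1 read 35.7, 44.9 and 38.6 CPM in the controls and 45.9, 59.6 and 55.3 after depletion (0.52 ± 0.107, adjusted p = 0.00512), and L1M3f, a rare family, 3.37, 4.79 and 3.59 in the controls and 5.16, 6.29 and 5.47 in the depleted libraries (0.63 ± 0.152, adjusted p = 0.0122). L1_Mm read 652, 898 and 738 in the controls and 1471, 998 and 925 CPM in the depleted libraries (0.66 ± 0.203, adjusted p = 0.0330), with its highest depleted library, replicate 1, well above the other 2. L1MEa fell, from 11.3, 15.1 and 13.3 to 7.40, 10.2 and 10.1 CPM (-0.41 ± 0.136, adjusted p = 0.0442). The median was 0.25 for the other rodent families, 0.25 for Lx and -0.12 for L1M, beside -0.06 over the 771 repeat families tested.

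In ES cells 11 families were called, and more, in both directions, with the replicate number as a block (counts given below). The count without a block was 26 without siCtrl replicate 2, 5 without siCtrl replicate 3 and 6 without siUbc9 replicate 2. It was 0 when the spread was estimated over all 28 libraries. With iPS shUbc9 replicate 2 left out of that pooled fit, an alternative chosen after seeing the data, 4 families were called, with L1Md_F (adjusted p = 0.00410), L1Md_Gf (0.0108) and L1Md_T (0.0287) among them.

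**Figure D3:**
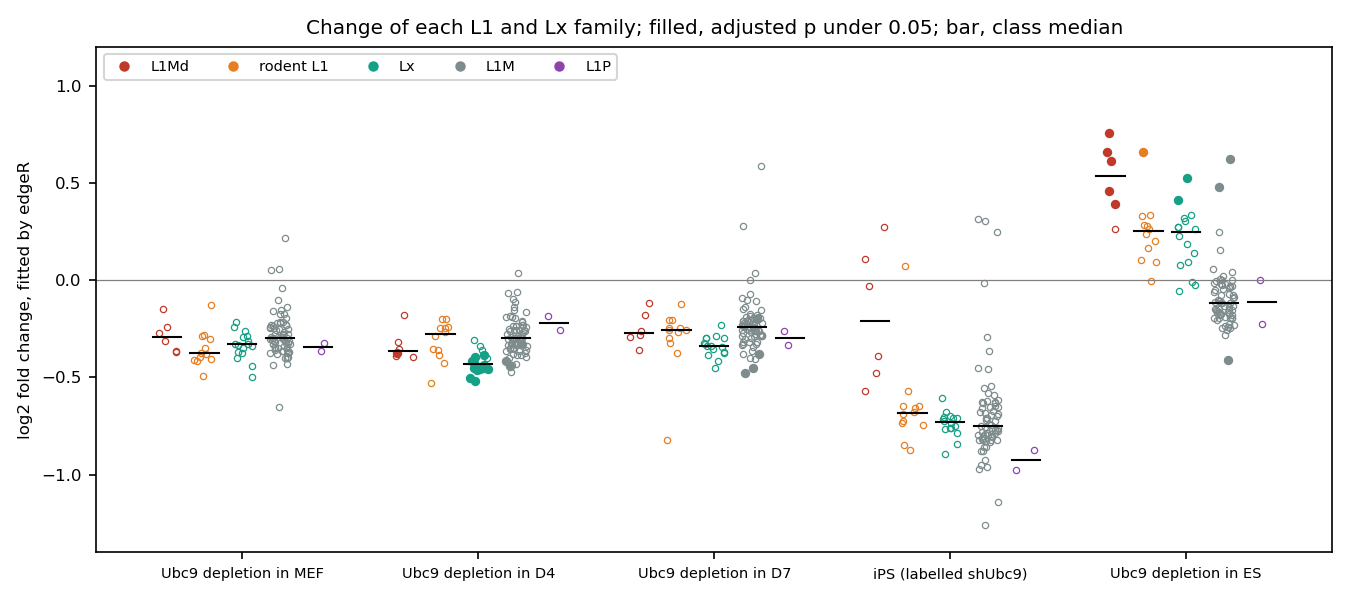
Fitted log2 fold change of each of the 105 L1 and Lx families tested (1 point per family) between depleted and control libraries in each state, by class; filled points passed an adjusted p of 0.05 and black bars are class medians. L1Md medians lay at -0.29, -0.36 and -0.27 in MEF, D4 and D7 and at 0.54 in ES cells, where the older L1 median was -0.09.

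Whether young families changed by another amount than older ones was tested by scaling each library to its summed older L1 counts. In ES cells 5 of 6 L1Md families were higher relative to older L1, against 11.7% of all rows under that scaling. The log2 differences were 0.77 ± 0.123 (SE) for L1Md_F (edgeR adjusted p = 0.000544), 0.67 ± 0.152 for L1Md_Gf (0.00684), 0.62 ± 0.110 for L1Md_T (0.00120), 0.47 ± 0.0931 for L1Md_F2 (0.00268) and 0.40 ± 0.115 for L1Md_F3 (0.0255). L1Md_A differed by 0.27 ± 0.116 (adjusted p = 0.135). The ratio of L1Md to older L1 rose from 0.650, 0.580 and 0.652 in ES siCtrl to 0.940, 0.795 and 0.876 in ES siUbc9 without overlap, and the ratio of the other rodent families to older L1 from 0.332, 0.349 and 0.341 to 0.430, 0.405 and 0.399. Older L1 did not move as 1 class, as its ratio of Lx to L1M counts rose from a mean of 1.03 to 1.19 without overlap. Leaving out single libraries left 4 or 5 families called. L1Md_F3 was the family lost, without siCtrl replicate 1 (adjusted p = 0.0607), 2 (0.0581) or 3 (0.152) and without siUbc9 replicate 2 (0.0814) or 3 (0.102).

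**Figure D4:**
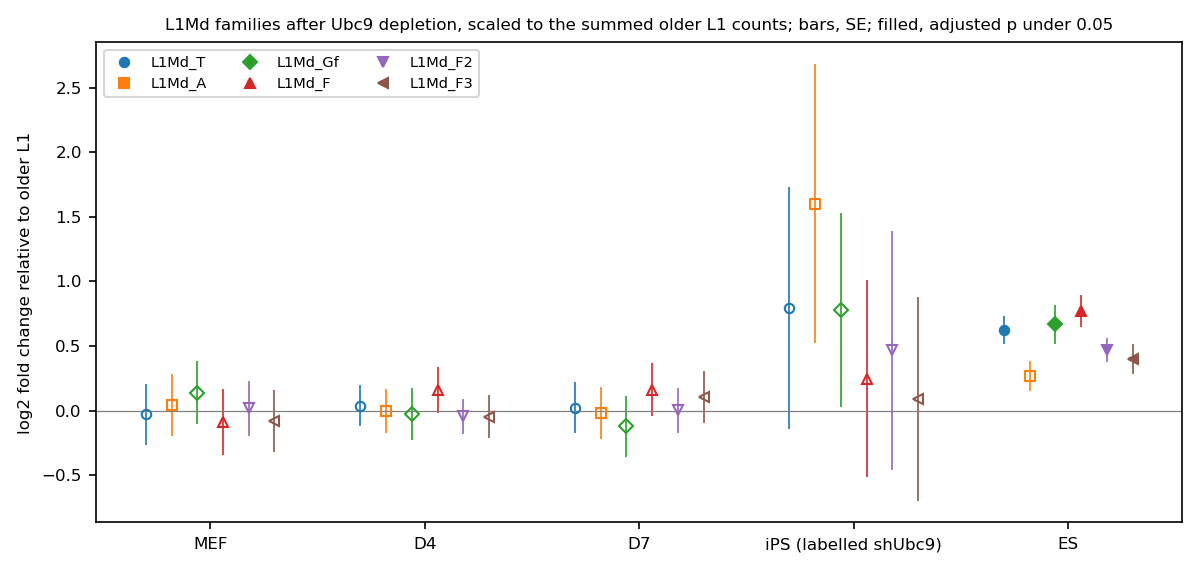
Log2 fold change of the 6 L1Md families between depleted and control libraries in each state, with library sizes set to the summed older L1 counts; bars are standard errors and filled symbols passed an adjusted p of 0.05. The filled symbols are the 5 families in ES cells, from 0.40 to 0.77, while the values in MEF, D4 and D7 lay between -0.12 and 0.16 and those in the libraries labelled iPS shUbc9, none of them called, between 0.09 and 1.60 with standard errors of 0.750 to 1.08.

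In fibroblasts no L1 family passed the test. L1Md_T read 316, 199 and 309 CPM in MEF shCtrl and 247 and 198 in MEF shUbc9, and L1Md_A 194, 129 and 180.4 in the controls and 153 and 133 in the depleted libraries. In both, control replicate 2 lay within or below the range of the depleted libraries. The L1Md families gave log2 fold changes of -0.37 (L1Md_F) to -0.15 (L1Md_Gf) with standard errors of 0.159 to 0.193, and the medians were -0.29 for L1Md, -0.31 for older L1 and -0.19 for all repeat families. With edgeR 0 of 105 families were called, 16 had an unadjusted p under 0.05 and DESeq2 called 0, against 4.37% of all rows called in either direction. Without MEF shCtrl replicate 2 the count was 89, all lower, so this library decided it. Relative to older L1 the L1Md families differed by -0.09 to 0.14 (0 of 6 called, 0 with an unadjusted p under 0.05, in edgeR, the tool run for this scaling), against 1.81% of all rows.

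At D4 16 L1 families were lower in depleted cells, 12 of them Lx and 1 of them L1Md. L1Md_Gf read 32.0, 30.8 and 41.3 CPM in D4 shCtrl and 24.8, 30.3 and 25.2 in D4 shUbc9 (log2 -0.37 ± 0.131, adjusted p = 0.0398), with no overlap. L1Md_T read 869, 683 and 1040.2 in the controls and 609.6, 816 and 657 in the depleted libraries and overlapped (-0.32 ± 0.167, adjusted p = 0.142), and the other 4 L1Md families gave -0.39 (L1Md_F3) to -0.18 (L1Md_F) and were not called. Of all L1 families 0 were called higher and 16 lower, against 25.3% of all rows called lower. Lx families supplied 12 of the 16, out of 16 Lx families tested, with a median of -0.43, beside -0.30 for L1M, -0.36 for L1Md and -0.30 for all repeat families. Lx2A fell from 41.2, 37.7 and 53.3 to 27.3, 34.6 and 30.4 CPM (-0.52 ± 0.140, adjusted p = 0.0139), Lx2A1 from 65.0, 63.9 and 83.4 to 44.8, 53.6 and 51.3 (-0.50 ± 0.117, adjusted p = 0.00683) and Lx2 from 631, 559 and 788 to 435, 537 and 464 (-0.46 ± 0.139, adjusted p = 0.0220). In these 3 families the lowest control library lay above the highest depleted one.

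The count at D4 moved with single libraries and settings. Leaving out shCtrl replicate 1, 2 or 3 gave 5, 46 and 2 families, leaving out shUbc9 replicate 1, 2 or 3 gave 1, 91 and 2, and the count was 0 when repeats were fitted alone or with all 28 libraries. Relative to older L1, the L1Md families differed by -0.05 (L1Md_F3) to 0.16 (L1Md_F), with standard errors of 0.133 to 0.201. By edgeR 0 of 6 were called and 0 had an unadjusted p under 0.05, against 35.8% of all rows. The L1Md to older L1 ratio was 0.213, 0.213 and 0.227 in D4 shCtrl and 0.206, 0.216 and 0.225 in D4 shUbc9.

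At D7 4 L1 families were lower in depleted cells, none of them L1Md. L1Md_T read 873, 791 and 1222 CPM in D7 shCtrl and 659, 745 and 994 in D7 shUbc9, and L1Md_A 584, 536 and 802 in the controls and 439, 461 and 662 in the depleted libraries. The groups overlapped in both, and 0 of 6 L1Md families were called by edgeR (0 with an unadjusted p under 0.05, 0 by DESeq2), with log2 fold changes of -0.36 (L1Md_Gf) to -0.12 (L1Md_F). Without TMM scaling, which moved the median of all genes by 0.21, L1Md_F and L1Md_F3 changed sign. Of all L1 families 0 were higher and 4 lower, against 25.4% of all rows called lower. L1ME3 fell from 62.8, 47.9 and 72.6 to 41.4, 44.5 and 45.3 CPM (-0.48 ± 0.139, adjusted p = 0.0197), L1ME4a from 161, 147 and 193 to 124, 115 and 127 (-0.45 ± 0.103, adjusted p = 0.00654) and L1MEe from 137, 136 and 174 to 118, 99.9 and 124 (-0.38 ± 0.122, adjusted p = 0.0289). The fourth was L1M2b, at 121, 120.4 and 130.3 in the controls and 105, 112 and 106 CPM in the depleted libraries. None of the 4 overlapped between the groups.

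At D7 the count was 69 with shCtrl replicate 2 left out, 12 with shUbc9 replicate 3 left out and 2 when shCtrl replicate 1 or 3 or shUbc9 replicate 1 was omitted, and without TMM scaling it was 1, a higher call. Relative to older L1, 0 of 6 L1Md families were called by edgeR (0 with an unadjusted p under 0.05), at -0.12 (L1Md_Gf) to 0.16 (L1Md_F), against 34.4% of all rows. The L1Md to older L1 ratio was 0.238, 0.247 and 0.252 in D7 shCtrl and 0.232, 0.239 and 0.278 in D7 shUbc9.

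In iPS cells the libraries labelled shUbc9 disagreed among themselves. L1Md_T read 1306 and 1257 CPM in iPS shCtrl and 1853, 744 and 1220.3 in the libraries labelled iPS shUbc9, and L1Md_A 428 and 372 in the controls and 449, 660.1 and 368 in those labelled shUbc9. Replicate 2 was the lowest of the 5 libraries for L1Md_T and the highest for L1Md_A. It also held the least older L1, 3751 CPM against 12160.4 and 12739.5 in the other 2 of its label. With edgeR 0 of 105 families were called, 0 had an unadjusted p under 0.05 and DESeq2 called 0, while 0% of all rows were called. Standard errors of the L1Md families ran from 0.368 (L1Md_A) to 0.623 (L1Md_F), beside changes of 0.26 to 0.76 in ES cells. The L1Md to older L1 ratio was 0.238 and 0.275 in iPS shCtrl and 0.362, 0.628 and 0.274 in the libraries labelled iPS shUbc9, 1.64-fold higher on the group means beside 1.39-fold in ES cells, but with overlap and with replicate 2 the highest. Scaled to older L1, 0 of 6 L1Md families were called by edgeR (0 with an unadjusted p under 0.05), at 0.09 ± 0.790 (SE) for L1Md_F3 to 1.60 ± 1.08 for L1Md_A, and without replicate 2 L1Md_A was at 0.31. Without replicate 2 the count over all L1 families was again 0, with a median of 0.01 for L1Md and -0.38 for older L1.

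The response of 5 of 6 L1Md families differed between ES cells and fibroblasts. In a model with the interaction of cell state and depletion, 12 of 105 families (11.4%) had a higher response in ES cells and 0 a lower one, beside 9.88% of all rows with a higher and 9.52% with a lower response, so the count over all L1 families was near that of all rows. These were 5 L1Md and 7 Lx families. The differences were 1.10 ± 0.219 for L1Md_F (edgeR adjusted p = 0.00210), 0.90 ± 0.215 for L1Md_T (0.00750), 0.78 ± 0.164 for L1Md_Gf (0.00314), 0.73 ± 0.191 for L1Md_F3 (0.0135) and 0.70 ± 0.225 for L1Md_F2 (0.0397), and 0.48 ± 0.184 for L1Md_A (0.0872). The median was 0.76 for L1Md, 0.48 for Lx and 0.18 for older L1. Cell state and the agent, siRNA in ES cells and hairpin in fibroblasts, cannot be told apart in this comparison.

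This count moved with single libraries. It was 30 without MEF shCtrl replicate 2, 28 without ES siCtrl replicate 2 and 24 without ES siUbc9 replicate 1, and 3 without MEF shUbc9 replicate 3, 7 without MEF shUbc9 replicate 1 and 6 when replicate 1 or 3 of MEF shCtrl or ES siCtrl, or replicate 2 or 3 of ES siUbc9, was omitted. No family was called for a difference of the responses at D7 and D4 (edgeR 0 of 105, 2 with an unadjusted p under 0.05, DESeq2 0, against 11.2% of all rows), or of those in iPS and ES cells (edgeR 0 of 105, 1 with an unadjusted p under 0.05, DESeq2 0, against 1.21% of all rows). The differences for L1Md_T were 0.07 ± 0.288 between D7 and D4 and -0.66 ± 0.448 between iPS and ES cells. A response that differs between ES cells and D4 or D7 was not tested.

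L1 levels followed the level of all other repeats across the libraries. Over the 28 libraries, which differ in depth and share scaling and kit, the log2 sum of older L1 and that of repeats outside L1 and Lx had a Pearson r of 0.907, and the sum of L1Md one of 0.900, as descriptions over groups that differ in state. In ES cells after depletion the 2 classes parted: summed other repeats were 205919, 249055 and 220049 CPM in ES siCtrl and 189106, 233984 and 229730.0 in ES siUbc9 and overlapped, summed older L1 was 25249, 31763 and 27274 in the controls and 21989, 28887 and 28129 in the depleted libraries and overlapped, and summed L1Md was 16421, 18424 and 17777 in the controls and 20677, 22971 and 24641 in the depleted libraries and did not.

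**Figure D5:**
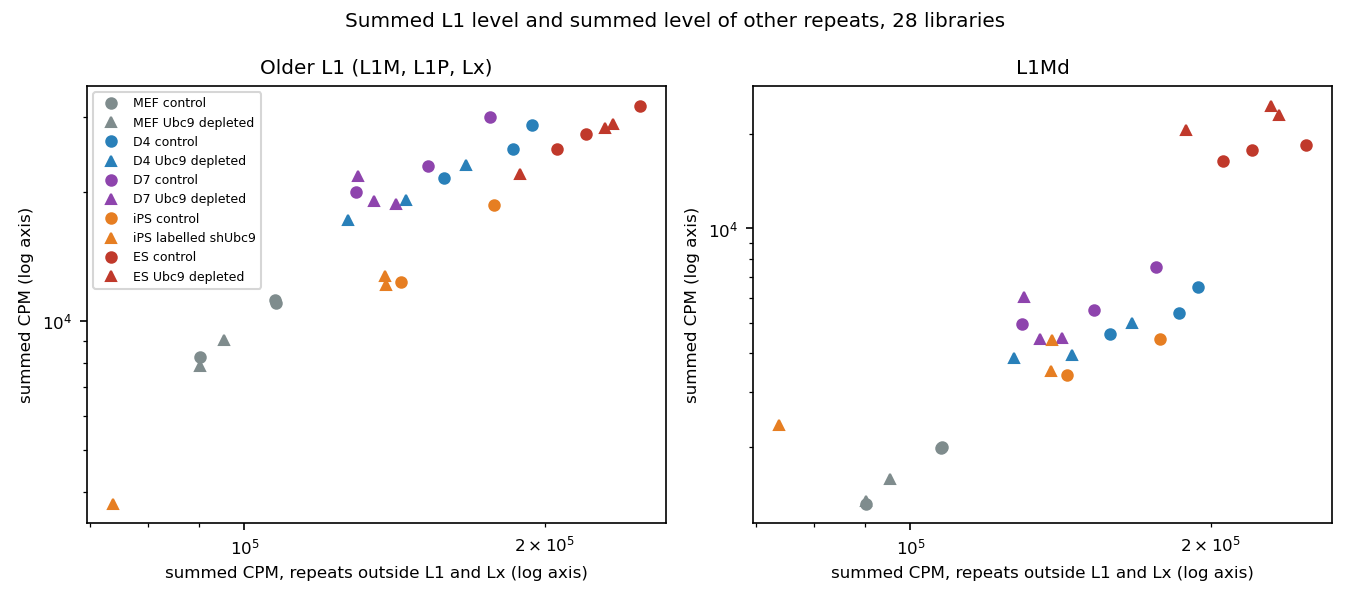
Summed CPM of older L1 (left) and of L1Md (right) against summed CPM of all repeats outside L1 and Lx, both axes logarithmic, 1 point per library; circles are controls, triangles libraries with a hairpin or siRNA against Ubc9. The ES siUbc9 triangles lie within the range of the ES controls on the left and below it at 1 library, and above all ES controls on the right; iPS shUbc9 replicate 2 is the lone orange triangle at the low end.

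Over the 10 group means L1Md_T was most like L1Md_Gf within L1Md (Pearson r of log2 CPM 0.992), then L1Md_A (0.971), and less like L1Md_F (0.847), L1Md_F3 (0.831) and L1Md_F2 (0.774). Among the 735 repeat rows outside L1Md with a mean of at least 1 CPM, the 3 most alike were RMER16-int (r = 0.991), RLTR13D6 (0.988) and RLTR9A2 (0.982), all with names of LTR elements and none an older L1 family.

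Genes listed for L1 silencing and restriction changed in both directions. The list also held Tet1, Tet2 and L1td1, for which a rise need not mean more silencing. Of the 41 genes listed, 5 were called higher and 11 lower in depleted ES cells, where 20.4% and 16.5% of all rows were called. Mov10, an RNA helicase that restricts L1, fell from 115 ± 4.35 to 55.7 ± 1.28 CPM (SD, log2 -0.96, adjusted p = 4.78e-06), Apobec3, a cytidine deaminase that restricts retroelements, from 95.9 ± 3.61 to 53.5 ± 1.56 CPM (adjusted p = 2.84e-05) and Pphln1, the periphilin subunit of the HUSH silencing complex, from 112 ± 0.874 to 71.5 ± 2.06 CPM (adjusted p = 7.20e-05). Atf7ip, the partner that stabilizes the H3K9 methyltransferase Setdb1, rose from 148 ± 19.5 to 312 ± 15.7 CPM (log2 1.16, adjusted p = 4.19e-05), as did Zc3hav1, the zinc finger antiviral protein (0.54, adjusted p = 0.000761), and Suv39h1, an H3K9 methyltransferase (0.18, adjusted p = 0.0235).

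In the fibroblast-derived states the same list gave other counts. In MEF 1 of 36 tested was higher and 0 were lower, with 2.89% and 1.48% of all rows called. The gene called was Dnmt3l, a cofactor of de novo DNA methylation (0.166 ± 0.0670 to 0.571 ± 0.0962 CPM, adjusted p = 0.0378). Both its means lay under 1 CPM, so this call rests on few reads. At D4 11 of 38 were higher and 12 lower, beside 25.6% and 25.3% of all rows. Tdrd9, a helicase of the germline piRNA pathway, rose by 1.98, Dnmt3l by 1.2 and Hells, a chromatin remodeler needed for DNA methylation of repeats, by 0.48, whereas Mov10 fell from 183 ± 13.6 to 90.5 ± 0.808 CPM, Dnmt3a, a de novo DNA methyltransferase, from 188 ± 10.8 to 112 ± 3.01 and Zc3hav1 from 164 ± 7.51 to 125 ± 2.21. At D7 15 of 39 were higher and 6 lower, beside 25.9% and 25.4% of all rows, with Piwil2, a piRNA-binding protein, up from 25.0 ± 1.23 to 56.7 ± 2.90 CPM, L1td1, an RNA-binding protein derived from an L1 reading frame, from 15.7 ± 4.56 to 51.3 ± 7.21, Tdrd9 up by 2.86, and Dnmt3a, Mov10 and Samhd1, a nucleotide hydrolase that restricts L1, at -0.97, -0.67 and -0.45 on the log2 scale. In iPS cells 0 of 41 were called, as no row of the table was.

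Of 17 genes of the SUMO pathway, 2 were higher and 3 lower in depleted ES cells, beside 20.4% and 16.5% of all rows. Senp6 and Senp7, proteases that trim SUMO chains, rose by 0.72 and 0.64 on the log2 scale, and Senp3 and Senp1, which also remove SUMO, fell (-0.72 and -0.22 on the log2 scale), as did the SUMO ligase Pias2 (-0.19). In MEF 1 was called, Sumo3, which was higher (0.27), beside 2.89% of all rows. At D4 6 were higher and 2 lower (25.6% and 25.3% of all rows), with Sumo3 at 0.59, Senp3 at 0.29 and Uba2, a subunit of the SUMO-activating enzyme, at 0.36, and the SUMO ligases Pias3 and Pias4 at -0.55 and -0.31. At D7 5 were higher and 3 lower (25.9% and 25.4% of all rows), with Sumo3 at 0.53, Uba2 at 0.52 and Sumo2 at 0.36, and Pias3, Senp7 and Pias1 at -0.56, -0.44 and -0.35.

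Markers of other cell types moved with some of these comparisons. In depleted ES cells, where 20.4% of all rows were called higher and 16.5% lower, 4 of 4 tested genes of 2-cell-like cells, a rare state of ES cultures, were higher, and the list summed to 37.6 to 43.5 CPM in ES siCtrl and 355 to 378 in ES siUbc9. The pluripotency list (5 of 10 lower) summed to 3875 to 4203 and 3135 to 3449 CPM, and the epithelial list (1 of 8 higher, 6 lower) to 687 to 696 and 629.9 to 672. The part of 2-cell-like cells in the L1Md rise was not tested.

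In the fibroblast-derived states, macrophage markers summed to 116 to 171 CPM in MEF shCtrl and 264 to 277 in MEF shUbc9 (7 of 8 called higher, beside 2.89% of all rows) and to 109.9 to 117 and 177 to 197 at D4 (8 of 8 higher, beside 25.6%). In MEF 4 of 10 fibroblast markers were higher and 0 lower. Fibroblast markers fell at D4 (8 of 10 lower, beside 25.3% of all rows), where the list summed to 29457 to 41529.5 CPM in the controls and 20165 to 22668 after depletion, and at D7 (10 of 10 lower, beside 25.4%), with 41169 to 56232 and 18794 to 22964 CPM. Pluripotency markers summed to 28.9 to 39.9 and 53.1 to 62.6 CPM at D4 (4 of 5 tested higher) and to 44.4 to 57.4 and 155 to 198 at D7 (9 of 10 higher, beside 25.9% of all rows). This list holds Pou5f1, the gene of Oct4, so reads from OKSM itself may be part of these sums and were not separated. Epithelial markers summed to 212 to 218 and 294 to 314 CPM at D4 (3 of 8 higher, 2 lower) and to 281 to 368 and 906 to 982 at D7 (7 of 8 higher). Whether these mixtures bear on the lower L1 levels at D4 and D7 was not tested, and in bulk RNA fewer cells of a type and less RNA per cell cannot be told apart.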

How the data were processed

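The deposited counts were reads per gene and per repeat family, made by the authors with STAR 2.5.0a and featureCounts on mm9, per the submitters' processing notes, from ribosome-depleted stranded total RNA, per the labels' protocols. The settings for strand and for multiply matching reads were not stated in the sources used here, and either one sets how many reads a young family receives. Symbols were found for 24191 of 26301 gene identifiers. Library sizes and TMM factors came from the gene rows. Each comparison was fitted with edgeR 4.0.16 (limma 3.58.1, R 4.3.3) over all rows that passed filterByExpr (minimum count 10), two-sided, with p-values adjusted by Benjamini-Hochberg over every row and called under 0.05. A further fit of each depletion comparison used the summed older L1 counts as library size. Both kinds of fit were tested on data simulated for MEF and D4 depletion, with rows drawn independently and at the same dispersion. Such data hold no shifts shared by the L1 families of a library, so they cannot show how stable the counts of called families are. The lowest count of an L1Md family in a library was 307 (L1Md_Gf), while that of the rare family L1M3a was 1. The parts of counting error and of spread between libraries in the precision were not separated.

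The families and gene lists were chosen with earlier results of these data known. Named were every L1Md family, per depletion comparison the 3 largest rises and falls among other called families of at least 1 CPM without overlap, and up to 3 rises and 3 falls with the smallest p of the silencing and SUMO lists. Alternatives were DESeq2 1.42.0, other library sizes and filters, repeats fitted alone, 1 fit of all libraries (also with 27 libraries, chosen after seeing the data), a replicate block, and leaving out each library. Same-numbered D4 and MEF controls correlated positively (correlations of deviations 0.349, 0.621 and 0.181, with replicate 3 best matched by replicate 1), as did ES libraries. For D4 with MEF the block moved no call count by over 1.5 times. Peak lists and L1 sequences were not used here, and results on 2 genes of the lists are not reported here.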

Additional observations from a re-analysis of the deposited data

Results flagged for a closer look

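The response to Ubc9 depletion differed between ES cells and fibroblasts in 12 of 105 L1 and Lx families (11.4%), by the interaction term of edgeR's quasi-likelihood fit, near the 9.88% of all rows with a higher response in ES cells. Among them were L1Md_F with a log2 difference of 1.10, L1Md_T with 0.90, L1Md_Gf with 0.78, L1Md_F3 with 0.73 and L1Md_F2 with 0.70, each response being higher in ES cells. Of these 5 families L1Md_F and L1Md_Gf kept their calls whichever of the 11 libraries was left out, L1Md_F3 (adjusted p = 0.0931) and L1Md_T (0.0660) lost them without MEF shUbc9 replicate 3, and L1Md_F2 lost its call in 8 of the 11 fits.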

How the results depend on the processing

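The calls that D4 and ES cells exceeded MEF in L1 RNA stayed within 1.5 times of their counts under every alternative run. The call that 5 of 6 L1Md families exceeded older L1 in depleted ES cells did so under the fewer alternatives run for it. These were scaling to repeats outside L1 and Lx or to L1M alone, the replicate block and leaving out single libraries. DESeq2, repeats fitted alone and the fits of all libraries were not run for that scaling. Counts for single depletion comparisons did not stay within 1.5 times. Whether the spread between libraries or counting depth limits these counts was not tested. DESeq2 called 38 families at D4 and 8 at D7. Without TMM scaling the counts were 2 in MEF, 10 at D4, 1 at D7 and 0 for D7 with D4. Without the filter on low counts they were 28 at D4 and 19 for the difference between ES and MEF responses. With repeats fitted alone they were 0 at D4, 0 at D7, 5 in ES cells, 0 for D7 with D4 and 4 for the difference between ES and MEF responses. With all 28 libraries in 1 fit they were 0 at D4, 1 at D7, 0 in ES cells, 0 for D7 with D4 and 0 for the difference between ES and MEF. With 27 libraries, chosen after seeing the data, they were 2 at D4, 1 in iPS cells, 4 in ES cells, 1 for the ES and MEF difference and 1 for the iPS and ES difference. The causes were not tested.

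With the replicate number as a block, 93 families were called in MEF (all lower), 2 at D4, 15 at D7, 55 in ES cells (27 higher, 28 lower), 23 for D7 with D4 and 52 for the ES and MEF difference. MEF shCtrl replicate 2 and iPS shUbc9 replicate 2 have no partner of their number in the depletion comparisons and response differences. The block therefore took them out of these. The MEF count is thus not separate from the 89 families called with MEF shCtrl replicate 2 left out. Same-numbered deviations correlated positively in every replicate of the D4 and MEF controls, although replicate 3 correlated best with replicate 1 there. Outside that comparison and ES depletion the correlations ran from -0.504 to 0.685, and libraries share only a number. In ES cells each library correlated best with its own number (0.311, 0.224 and 0.0994), a hint from the data and not from the design. The block changed no other count by over 1.5 times.

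Leaving out 1 library at a time, with a lone remaining library assumed to vary like the other groups, gave 0 to 89 called families in MEF, 1 to 91 at D4, 2 to 69 at D7, 5 to 26 in ES cells, 1 to 2 for D7 with D4, 52 to 104 for iPS with ES, 3 to 30 for the ES and MEF difference, 0 to 1 for the D7 and D4 difference and 0 to 1 for the iPS and ES difference.

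Sign changes were confined to L1Md values that were not called in the fit reported. Relative to repeats outside L1, values of the other sign were -0.090 (L1Md_A) and -0.12 (L1Md_F2) in MEF, -0.0084 (L1Md_T) at D4, -0.098 (L1Md_F2) and -0.076 (L1Md_T) at D7, and -0.017 (L1Md_F) and -0.19 (L1Md_F3) in iPS. Relative to L1M alone they were -0.026 (L1Md_T) at D4, and -0.046 (L1Md_F2) and -0.025 (L1Md_T) at D7. Under the replicate block they were -0.037 (L1Md_F2, MEF) and -0.0022 (L1Md_F2, D7) relative to older L1, 0.076 (L1Md_F) and 0.22 (L1Md_T) in iPS, and -0.028 (L1Md_Gf) for the D7 and D4 difference. Without TMM scaling L1Md_F was at 0.11 and L1Md_F3 at 0.049 at D7. With 27 libraries L1Md_F was at 0.062 and L1Md_T at 0.26 in iPS. L1Md_A in the iPS and ES difference was at 0.042 by DESeq2 and 0.13 with all libraries in 1 fit.

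With 1 library left out, the ranges that crossed 0 were as follows. Scaled to older L1, in MEF depletion, the values ran from -0.097 to 0.032 (L1Md_T) and -0.037 to 0.052 (L1Md_F2). Scaled to older L1, in D4 depletion, the values ran from -0.028 to 0.10 (L1Md_T), -0.052 to 0.050 (L1Md_A) and -0.087 to 0.0048 (L1Md_Gf). Scaled to older L1, in D7 depletion, the values ran from -0.076 to 0.039 (L1Md_F2), -0.085 to 0.12 (L1Md_T), -0.33 to 0.0086 (L1Md_Gf) and -0.15 to 0.063 (L1Md_A). For D7 depletion, the values ran from -0.26 to 0.056 (L1Md_F). For iPS depletion, the values ran from -0.41 to 0.23 (L1Md_T), -0.38 to 0.47 (L1Md_Gf), -0.0052 to 0.43 (L1Md_A) and -0.69 to 0.029 (L1Md_F). Scaled to older L1, in iPS depletion, the values ran from -0.012 to 0.17 (L1Md_F3). For D7 with D4, the values ran from -0.086 to 0.25 (L1Md_F2), -0.086 to 0.23 (L1Md_F3), -0.050 to 0.28 (L1Md_F) and -0.051 to 0.32 (L1Md_T). For the D7 and D4 difference, the values ran from -0.15 to 0.29 (L1Md_A), -0.059 to 0.28 (L1Md_F), -0.28 to 0.18 (L1Md_Gf), -0.13 to 0.30 (L1Md_T) and -0.042 to 0.35 (L1Md_F2). For the iPS and ES difference, the values ran from -0.24 to 0.13 (L1Md_A).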

Other observations

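Other retrotransposons were higher beside young L1 in depleted ES cells. Of 16 IAP families, endogenous retroviruses that are still mobile in the mouse, 13 were called higher and 0 lower by edgeR at a median of 1.32 on the log2 scale. All 4 ETn families, retrovirus-like elements, were higher with a median of 1.09. Of 102 RLTR families tested, long terminal repeats and some internal regions of retroviruses, 35 were higher and 1 lower, with a median of 0.10. Of 7 families with names in MERVL or MT2, which include a retrovirus known from 2-cell embryos and its long terminal repeats, 2 were higher (median of the 7 0.01). MERVL-int read 1025, 1114 and 1087 CPM in ES siCtrl and 3229, 3367 and 3669 in ES siUbc9 (1.76 ± 0.0887, SE, adjusted p = 2.34e-06), and MT2_Mm 225, 277 and 241 and 427, 543 and 546 (1.12 ± 0.110, adjusted p = 9.52e-05), each without overlap, while the other 5 lay between -0.09 and 0.18 and were not called. Both were named after their values were seen. The median was -0.18 over 10 B1 families, which are SINEs, -0.14 over 5 families of the ancient MIR and -0.16 over 4 of the ancient L2, while 20.4% of all rows were called higher and 16.5% lower.

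At D7, where 0 of 6 L1Md families were called, 4 of 4 ETn families were higher with a median of 0.71, and of 16 IAP families 3 were higher and 2 lower, beside 25.9% and 25.4% of all rows. At D4 1 of 4 ETn families was higher and 40 of 102 RLTR families were lower, beside 25.6% of all rows higher and 25.3% lower.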
